A study of Mus musculus with 10 samples.

Results

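Transcripts of 28 genes of sterol and fatty acid synthesis were read in RNA sequencing libraries of the barrel field of mouse primary somatosensory cortex (S1BF) at postnatal day 17. The genes were taken by symbol from the deposited table of 52636 genes, and all 28 were found and passed the filter on low counts, as did 18455 genes in all. They comprise 7 enzymes of the mevalonate arm, 11 enzymes from squalene to sterol, 5 genes of SREBP control and sterol transport, and 5 enzymes around fatty acid synthesis. The 10 libraries came from C57BL/6 mice of 3 genotypes that all carried the conditional allele Rxratm1Krc/J of Rxra, the gene of retinoid X receptor alpha. The cKO libraries (n = 4) carried Nex-cre with the conditional knockout, the Hetero libraries (n = 2) carried Nex-cre with the heterozygous conditional deletion, and the Loxp libraries (n = 4) carried no Cre. In Nex-cre the recombinase is knocked into Neurod6 and is active in excitatory cortical neurons, so other cells of the tissue keep the receptor, and cKO and Hetero differ from Loxp in the Cre as well as in Rxra. Nothing in the labels ties the libraries to separate animals, and p-values here cover only the spread between libraries, which may be technical.

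Cholesterol is built from acetyl-CoA through mevalonate, farnesyl diphosphate, squalene and lanosterol, and fatty acids are built from the same acetyl-CoA by way of malonyl-CoA. Both routes are driven by SREBP transcription factors, which SCAP escorts out of the endoplasmic reticulum when sterols are low and which INSIG proteins hold back when sterols are high. The blood-brain barrier keeps out plasma lipoproteins, so the brain makes its own cholesterol, with high demand while oligodendrocytes lay down myelin after birth. Retinoid X receptors pair with the liver X receptors, which sense oxysterols and control genes of sterol efflux and of lipid synthesis.

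Proximal promoters of these genes were read from RefSeq (GRCm38.p6), as windows from 250 bases upstream to 50 bases downstream of each annotated start. Of the 28 genes, 24 matched the table by symbol, and Fdft1, Stard4, Fdps and Sqle did not. The CCAAT box, which NF-Y binds and which cooperates with SREBP at sterol genes, was searched as CCAAT on both strands. It stood in the windows of 21 of 24 genes (87.5%), against 41.1% of all 27025 genes in the table. The GC box GGGCGG, a motif of Sp1, stood in 20 of 24 genes (83.3%), against 38.2% of all genes. The sterol regulatory element TCACNCCAC stood in 1 of 24 genes (4.2%), Hmgcs1, against 1.4% of all genes. The E-box CACGTG stood in 5 of 24 (20.8%), namely Hsd17b7, Sc5d, Dhcr7, Insig1 and Scap, against 8.1% of all genes. The direct repeat of AGGTCA with a gap of 4 bases, a form that liver X receptors bind with retinoid X receptors, was searched as exact letters on both strands. It stood in 0 of 24 genes and in 4 of all 27025. For each of these motifs, the share over all genes is not matched to the 24 by level, gene type or number of starts. A match describes the letters of a window and is not a binding site, and the absence of one says only that these letters are not in it.

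Stretches of 150 bases directly upstream of the RefSeq start are given for 5 genes, on the strand of the gene, with capitals for CCAAT or its reverse complement ATTGG and, in Hmgcs1, for the TCACNCCAC match. Hmgcs1 (chr13:119690201-119690350, plus strand) is shown as the gene with the sterol regulatory element, and Mvk (chr5:114444119-114444268, plus strand) for its 4 CCAAT matches. Ebp (chrX:8193513-8193662, minus strand), Insig2 (chr1:121332590-121332739, minus strand) and Fasn (chr11:120824548-120824697, minus strand) are shown as genes of the other roles whose values are given in full below. The matches of Hmgcs1 begin 137 (TCACNCCAC) and 45 bases before the start, and those of Fasn 90, 62 and 59 bases before it, of which the last pair overlap.
Hmgcs1: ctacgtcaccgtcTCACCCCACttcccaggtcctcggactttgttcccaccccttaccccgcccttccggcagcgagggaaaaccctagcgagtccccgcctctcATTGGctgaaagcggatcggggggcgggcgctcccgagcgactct
Mvk: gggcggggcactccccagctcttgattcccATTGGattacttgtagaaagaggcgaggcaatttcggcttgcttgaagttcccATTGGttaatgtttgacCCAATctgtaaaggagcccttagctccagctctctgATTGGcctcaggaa
Ebp: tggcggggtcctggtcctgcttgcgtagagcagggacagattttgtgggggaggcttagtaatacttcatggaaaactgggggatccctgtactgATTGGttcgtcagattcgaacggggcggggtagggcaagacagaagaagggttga
Insig2: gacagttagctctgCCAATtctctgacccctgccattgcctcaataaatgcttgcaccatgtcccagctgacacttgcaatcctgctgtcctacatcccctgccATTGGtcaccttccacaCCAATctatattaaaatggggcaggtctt
Fasn: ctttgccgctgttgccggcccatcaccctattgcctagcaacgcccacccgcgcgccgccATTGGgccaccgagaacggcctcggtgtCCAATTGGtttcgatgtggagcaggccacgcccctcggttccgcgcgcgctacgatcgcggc

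Counts totalled 19332990 to 26086337 per library. CPM are counts scaled to the TMM-scaled library total by edgeR's cpm function. Rxra itself stood at 29.0 to 32.3 CPM in cKO and 23.2 to 26.4 in Hetero. It stood at 24.5, 21.6, 28.3 and 31.8 in Loxp 1 to 4. Every cKO library lay above Loxp 1, Loxp 2 and Loxp 3, as in 2.08% of all genes tested, and Loxp 4 lay within the cKO range. These counts cover the whole gene and cells without Cre, so they do not check the deletion. Neurod6, which carries the Cre, stood at 22.9 to 38.1 CPM in cKO, 34.0 and 34.4 in Hetero, and 66.7, 55.7, 61.9 and 34.9 in Loxp. The last of these, the library labelled Loxp 4, lay within the cKO range of Neurod6, against its label. Counts of genes without overlap, median fold changes and several single fold changes of the 28 genes are given with and without this library. Group means and ranges include it. Markers of excitatory neurons were all detected and summed to 9290 to 10383 CPM in cKO, 9398 and 9797 in Hetero, and 8932 to 10173 in Loxp. Oligodendrocyte markers summed to 8990, 6235, 8758 and 10342 CPM in cKO 1 to 4, and 9841 and 6737 in Hetero. In Loxp 1 to 4 they summed to 8928, 8779, 10134 and 11097. In both comparisons with Loxp, 10 of 10 oligodendrocyte markers had a log2 fold change below 0, with medians of −0.19 (cKO) and −0.23 (Hetero). Choroid plexus markers stood at 3.64 to 23.1 CPM in cKO, 7.56 and 738 in Hetero, the last in Hetero 2, and 3.35 to 7.31 in Loxp. No marker of these lists was at 0 in every library.

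The pathway was well represented in this tissue. Levels of different genes are compared as FPKM (the authors' values per length and library size), given below as mean ± SD over 4 cKO, 2 Hetero and 4 Loxp libraries. In Loxp the means spanned 0.494 FPKM (Acacb) to 70.0 FPKM (Hmgcs1), and 24 of 28 genes reached 5 FPKM. Levels were also even between libraries, since the coefficient of variation of CPM over all 10 libraries had a median of 9.55% over the 28 genes (5.46% to 33.6%), against 13.7% over all genes tested. It lay under that figure for 23 of 28 genes, and the highest library stood within 1.5-fold of the lowest for 20 of 28. The genes tested were not matched to the 28 by level. Fdps and Acacb, with the fewest reads of the 28, had coefficients of 33.6% and 28.3%.

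In the mevalonate arm, Hmgcs1, the cytosolic HMG-CoA synthase, had the highest level of all 28 genes. It averaged 64.5 ± 9.26 FPKM in cKO, 65.0 ± 5.09 in Hetero and 70.0 ± 9.61 in Loxp. Acat2, the cytosolic thiolase that joins acetyl-CoA units at the start of the route, averaged 17.2 ± 0.762 FPKM in cKO, 16.6 ± 0.287 in Hetero and 18.2 ± 1.71 in Loxp. The kinases that phosphorylate mevalonate came next in the route. Mvk averaged 11.8 ± 2.60 FPKM in cKO, 10.5 ± 0.581 in Hetero and 10.9 ± 1.01 in Loxp, and Pmvk averaged 17.2 ± 1.24 in cKO, 17.4 ± 0.253 in Hetero and 18.8 ± 2.08 in Loxp. The decarboxylase Mvd averaged 20.2 ± 4.02 FPKM in cKO, 17.9 ± 1.27 in Hetero and 19.3 ± 1.74 in Loxp. Idi1, the isomerase of the isoprene units, averaged 6.64 ± 0.636 FPKM in cKO, 6.52 ± 0.765 in Hetero and 6.93 ± 0.853 in Loxp. With all libraries, no pair of groups separated in any of these genes.

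Fdps, the farnesyl diphosphate synthase, was listed far below its neighbours in the route, and its count is uncertain. It averaged 0.443 ± 0.190 FPKM in cKO, 0.379 ± 0.125 in Hetero and 0.525 ± 0.142 in Loxp, from 34 to 71 reads in cKO, 24 and 44 in Hetero, and 32 to 62 in Loxp. The processed pseudogene Gm3571, 98.9% identical over 1062 bases, received 87 to 109 reads in cKO, 79 and 98 in Hetero, and 92 to 102 in Loxp, above Fdps in every library. Reads can be split or lost between such copies. The gene model Gm43738 shares 26.7% of the exonic bases of Fdps on the same strand and was at 0 in every library, and Gm5873, 96.7% identical over 1066 bases, had 9 to 35 reads. Fdps and its 5 copies together had 150 to 200 reads in cKO, 122 and 175 in Hetero, and 140 to 195 in Loxp. In all, 9 of the 28 genes had a copy matching at 95% or more over 500 or more bases, or shared at least 10% of their exonic bases with another gene. Acaca has the pseudogene Gm5182 (99.2% identical over 6118 bases, 149 to 266 reads), Acat2 the paralogue Acat3 (97.7%, 19 to 55 reads), and Tm7sf2 shares 12.1% of its exonic bases with Vps51 on the same strand. Fdft1 shares 18.3% of its exonic bases with Ctsb on the other strand, and the use of strand in counting is not given in the sources used here.

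Along the arm from squalene to sterol, mean levels in Loxp ran from 4.35 FPKM (Lss) to 21.6 FPKM (Cyp51). Cyp51, the lanosterol demethylase, averaged 19.0 ± 1.71 FPKM in cKO, 18.4 ± 0.844 in Hetero and 21.6 ± 2.15 in Loxp. Fdft1, the squalene synthase, averaged 18.8 ± 1.14 FPKM in cKO, 17.3 ± 0.192 in Hetero and 18.9 ± 1.93 in Loxp. Sqle, the squalene epoxidase and a rate-limiting step, averaged 16.5 ± 1.81 FPKM in cKO, 15.6 ± 0.648 in Hetero and 16.2 ± 1.45 in Loxp. Lss, the lanosterol synthase that closes the sterol rings, was the lowest of the arm. It averaged 4.52 ± 0.454 FPKM in cKO, 4.29 ± 0.377 in Hetero and 4.35 ± 0.452 in Loxp. Enzymes that remove methyl groups from the sterol ring followed. Msmo1, the methylsterol monooxygenase, averaged 11.96 ± 0.202 FPKM in cKO, 11.8 ± 0.352 in Hetero and 12.9 ± 1.06 in Loxp. Nsdhl averaged 7.79 ± 0.947 FPKM in cKO, 6.99 ± 0.692 in Hetero and 7.68 ± 0.390 in Loxp, and the keto-reductase Hsd17b7 averaged 5.65 ± 0.670 in cKO, 5.43 ± 0.462 in Hetero and 5.74 ± 0.156 in Loxp. Late steps of the route are reductions, an isomerisation and a desaturation. The reductase Tm7sf2 averaged 8.50 ± 2.55 FPKM in cKO, 8.76 ± 0.239 in Hetero and 8.40 ± 1.01 in Loxp, and the isomerase Ebp averaged 6.14 ± 0.532 in cKO, 6.88 ± 0.184 in Hetero and 7.08 ± 0.505 in Loxp. The desaturase Sc5d averaged 14.7 ± 1.03 FPKM in cKO, 14.7 ± 0.0197 in Hetero and 15.3 ± 1.05 in Loxp. Dhcr7, the reductase at the end of the Kandutsch-Russell branch, averaged 8.91 ± 1.60 FPKM in cKO, 8.84 ± 0.724 in Hetero and 8.07 ± 0.532 in Loxp.

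Among the control genes, Srebf2, the gene of the SREBP that drives sterol synthesis, averaged 55.7 ± 5.11 FPKM in cKO, 55.5 ± 1.17 in Hetero and 54.5 ± 6.78 in Loxp. Scap, its escort, averaged 15.4 ± 1.90 FPKM in cKO, 15.1 ± 0.00526 in Hetero and 14.4 ± 2.11 in Loxp. Insig1, itself a target of SREBP, averaged 24.8 ± 1.86 FPKM in cKO, 23.0 ± 1.76 in Hetero and 24.2 ± 5.03 in Loxp. It stood above Insig2, the other retention protein, in every library. Insig2 averaged 8.95 ± 1.30 FPKM in cKO, 9.17 ± 0.644 in Hetero and 9.52 ± 0.573 in Loxp, so that the ratio of Insig1 to Insig2 was 2.56 to 3.17 in cKO, 2.50 and 2.52 in Hetero, and 2.03 to 2.90 in Loxp. Stard4, a cytosolic sterol carrier, averaged 6.05 ± 0.451 FPKM in cKO, 5.88 ± 0.246 in Hetero and 5.90 ± 0.632 in Loxp.

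Among the fatty acid genes, Fasn, the fatty acid synthase, averaged 35.9 ± 2.24 FPKM in cKO, 34.4 ± 0.00984 in Hetero and 34.3 ± 3.43 in Loxp. Acly, the citrate lyase that supplies cytosolic acetyl-CoA, averaged 32.9 ± 1.89 FPKM in cKO, 32.3 ± 0.0875 in Hetero and 32.3 ± 2.30 in Loxp, and had the lowest coefficient of variation of the 28 genes. Me1, the cytosolic malic enzyme that makes NADPH, averaged 12.1 ± 1.31 FPKM in cKO, 12.9 ± 0.110 in Hetero and 12.6 ± 1.62 in Loxp. The acetyl-CoA carboxylases, which make malonyl-CoA, differed in level. Acaca, the cytosolic form for synthesis, averaged 4.74 ± 0.457 FPKM in cKO, 4.62 ± 0.299 in Hetero and 4.57 ± 0.610 in Loxp. Acacb, the form at the outer mitochondrial membrane that restrains fatty acid oxidation, averaged 0.555 ± 0.201 FPKM in cKO, 0.464 ± 0.00604 in Hetero and 0.494 ± 0.137 in Loxp. The ratio of Acaca to Acacb was 4.98 to 12.8 in cKO, 9.42 and 10.5 in Hetero, and 7.07 to 12.5 in Loxp, while that of Fasn to Acaca was 7.32 to 8.10 in cKO, 7.11 and 7.79 in Hetero, and 6.43 to 8.41 in Loxp.

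**Figure D1:**
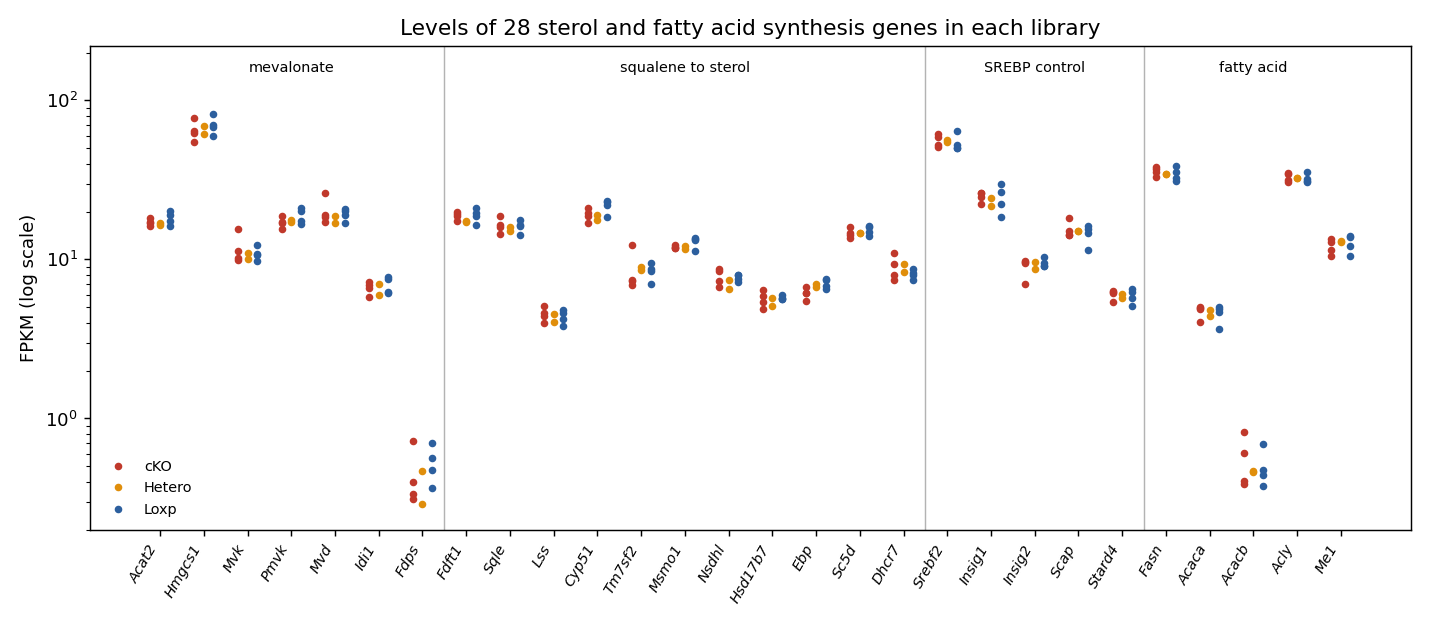
FPKM (log axis) of the 28 genes in each library, 1 point per library, with cKO, Hetero and Loxp side by side and genes grouped by role. The groups overlap for every gene; Hmgcs1 and Srebf2 stand highest, and Fdps and Acacb stand below 1 FPKM.

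The comparison of cKO with Loxp asked how these transcripts respond in S1BF to the loss of Rxra from excitatory neurons. No gene of the pathway rose or fell by the test. edgeR's quasi-likelihood test with Benjamini-Hochberg adjustment called 0 of the 28 genes and 0 of all 18455 genes tested (0%), and DESeq2 and limma-voom also called 0 of all genes. At an unadjusted p under 0.05 edgeR had 466 genes (2.53%) and 0 of the 28. In 0 of the 28 genes did cKO stand wholly above or wholly below Loxp, against 0.818% of all genes wholly above and 0.721% wholly below. When the library labelled Loxp 4 was left out, 2 of 28 genes (7.14%), Cyp51 and Msmo1, stood wholly below Loxp in cKO, against 2.74% of all genes, and 0 stood wholly above, against 2.08%. The intervals were narrow for these genes, since the 95% interval of the fold change lay within 1.5-fold either way for 26 of 28 (92.9%), against 64.8% of all genes, the exceptions being Fdps and Acacb. Here and below, the share over all genes is not matched for level. In whole tissue, fewer cells of a type and less RNA per cell cannot be told apart. In cKO against Loxp, 5 of 5 genes induced by neuronal activity lay below 0 (median −0.66). They summed to 532, 425, 517 and 748 CPM in cKO 1 to 4, against 825, 615, 904 and 1440 in Loxp 1 to 4. Endothelium (median −0.050) and meninges markers (median −0.17) lay below 0 for 5 of 5 each, against 3 of 8 astrocyte, 1 of 6 microglia and 1 of 5 oligodendrocyte precursor markers. The part of these lists in the values of cKO was not tested.

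The median log2 fold change (cKO over Loxp) of the 28 genes was 0.017, with a range from −0.25 to 0.16, and 13 of 28 (46.4%) lay below 0, against a median of 0.00033 and 49.9% below 0 over all genes tested. By role, 5 of 7 mevalonate genes lay below 0 (median −0.086), as did 6 of 11 genes from squalene to sterol (median −0.0093), 1 of 5 control genes (median 0.030) and 1 of 5 fatty acid genes (median 0.050). Without cKO 2 the median of the 28 genes was −0.040, and 18 of 28 (64.3%) lay below 0, against 50% of all genes. By role, this gave 7 of 7 mevalonate genes (median −0.11), 9 of 11 genes from squalene to sterol (median −0.041), 1 of 5 control genes (median 0.011) and 1 of 5 fatty acid genes (median 0.038). Without the library labelled Loxp 4 the median was −0.00058, and 14 of 28 lay below 0, with 5 of 7 mevalonate genes (median −0.13) and 7 of 11 genes from squalene to sterol (median −0.025). Without Loxp 1 the median was −0.014, with 18 of 28 below 0, and without Loxp 2 it was −0.0030, with 17 of 28. With Loxp 3, cKO 1, cKO 3 or cKO 4 left out, 13 of 28 lay below 0.

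In the mevalonate arm, Pmvk (ENSMUSG00000027952, GRCm38 chromosome 3, 89454541 to 89469013) had the smallest p. It stood at 29.4, 32.2, 29.8 and 26.9 CPM in cKO, against 36.2, 34.7, 28.8 and 29.9 in Loxp. Loxp 1 and Loxp 2 lay above all cKO libraries, while Loxp 3 and the library labelled Loxp 4 lay within the cKO range. Its log2 fold change was −0.13 (SE 0.0934, unadjusted p = 0.181, edgeR adjusted p = 0.99983), and an exact two-sided permutation test of 4 against 4 libraries gave p = 0.257, where 0.0286 is the smallest p possible. The other members ran from −0.25 (Fdps, SE 0.304) to 0.11 (Mvk, SE 0.132).

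From squalene to sterol, Ebp and Cyp51 had the smallest p of the 28 genes. Ebp (ENSMUSG00000031168, GRCm38 chromosome X, 8185329 to 8193512), the sterol isomerase whose promoter is printed above, stood at 14.3, 12.7, 15.7 and 14.4 CPM in cKO, against 17.5, 15.1, 17.4 and 15.8 in Loxp. Only cKO 3 and Loxp 2 kept the groups from separating. The log2 fold change was −0.21 (SE 0.0992, 95% interval −0.42 to 0.0087, unadjusted p = 0.0587, edgeR adjusted p = 0.99983), and the exact permutation test gave p = 0.0571. Without the library labelled Loxp 4 it was −0.22, and without cKO 2 it was −0.15.

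Cyp51 (ENSMUSG00000001467, GRCm38 chromosome 5, 4081145 to 4104746), the demethylase that acts first on lanosterol, stood at 86.5, 93.6, 83.2 and 75.1 CPM in cKO, against 97.7, 103, 102 and 81.8 in Loxp. Every cKO library lay below Loxp 1, Loxp 2 and Loxp 3, and the library labelled Loxp 4 lay within the cKO range. On the log2 scale the fold change was −0.19 (SE 0.0921, 95% interval −0.38 to 0.013, unadjusted p = 0.0649, edgeR adjusted p = 0.99983), and the exact permutation test gave p = 0.143. Without the library labelled Loxp 4 it was −0.25 (unadjusted p = 0.0132), and without cKO 2 it was −0.23 (unadjusted p = 0.0206), in neither case past the adjusted threshold. Msmo1, which removes further methyl groups from the ring and was singled out after its values were seen, also stood below Loxp 1, Loxp 2 and Loxp 3 in every cKO library. It stood at 73.1, 73.2, 75.8 and 73.7 CPM in cKO, against 82.2, 84.3, 83.3 and 69.8 in Loxp (log2 fold change −0.11, SE 0.0758, unadjusted p = 0.165). Without the library labelled Loxp 4, which alone lay below the cKO libraries, it was −0.16 (unadjusted p = 0.0356, not past the adjusted threshold). The other 8 members of the arm ran from −0.063 (Sc5d, SE 0.0788) to 0.14 (Dhcr7, SE 0.114).

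Among the control genes, Insig2 (ENSMUSG00000003721, GRCm38 chromosome 1, 121304353 to 121332589) had the smallest p in cKO against Loxp. It stood at 33.5, 24.5, 34.0 and 32.9 CPM in cKO, against 32.0, 31.9, 36.3 and 33.1 in Loxp, so that cKO 2 alone lay below the Loxp range. edgeR put its log2 fold change at −0.092 (SE 0.105, unadjusted p = 0.396, edgeR adjusted p = 0.99983; exact permutation p = 0.571), and it was 0.011 without cKO 2. Insig1 (ENSMUSG00000045294, GRCm38 chromosome 5, 28071363 to 28078662) stood at 76.4, 69.2, 80.9 and 81.6 CPM in cKO, against 69.1, 57.5, 93.8 and 81.7 in Loxp. The Loxp libraries thus spread wider than the cKO libraries and enclosed them, and the log2 fold change was 0.028 (SE 0.126, edgeR adjusted p = 0.99983; exact permutation p = 0.829). Srebf2 stood at 0.030 (SE 0.0967), Scap at 0.094 (SE 0.111) and Stard4 at 0.033 (SE 0.0933) on the log2 scale.

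Among the fatty acid genes, Fasn (ENSMUSG00000025153, GRCm38 chromosome 11, 120805846 to 120824547) had the smallest p in cKO against Loxp. It stood at 391, 419, 409 and 362 CPM in cKO, against 341, 357, 427 and 387 in Loxp, and the Loxp range enclosed the cKO libraries. Its log2 fold change was 0.064 (SE 0.0845, 95% interval −0.12 to 0.25, unadjusted p = 0.462, edgeR adjusted p = 0.99983; exact permutation p = 0.457). Acacb (ENSMUSG00000042010, GRCm38 chromosome 5, 114146535 to 114250761) varied most in this role, at 3.90, 5.92, 3.78 and 7.90 CPM in cKO, against 4.58, 4.26, 3.66 and 6.66 in Loxp. The fourth library of each group was its highest, and the log2 fold change was 0.16 (SE 0.247, unadjusted p = 0.522, edgeR adjusted p = 0.99983; exact permutation p = 0.714). It was −0.083 without cKO 4 and 0.37 without the library labelled Loxp 4. Acaca stood at 0.050 (SE 0.105), Acly at 0.026 (SE 0.0759) and Me1 at −0.066 (SE 0.105) on the log2 scale.

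**Figure D2:**
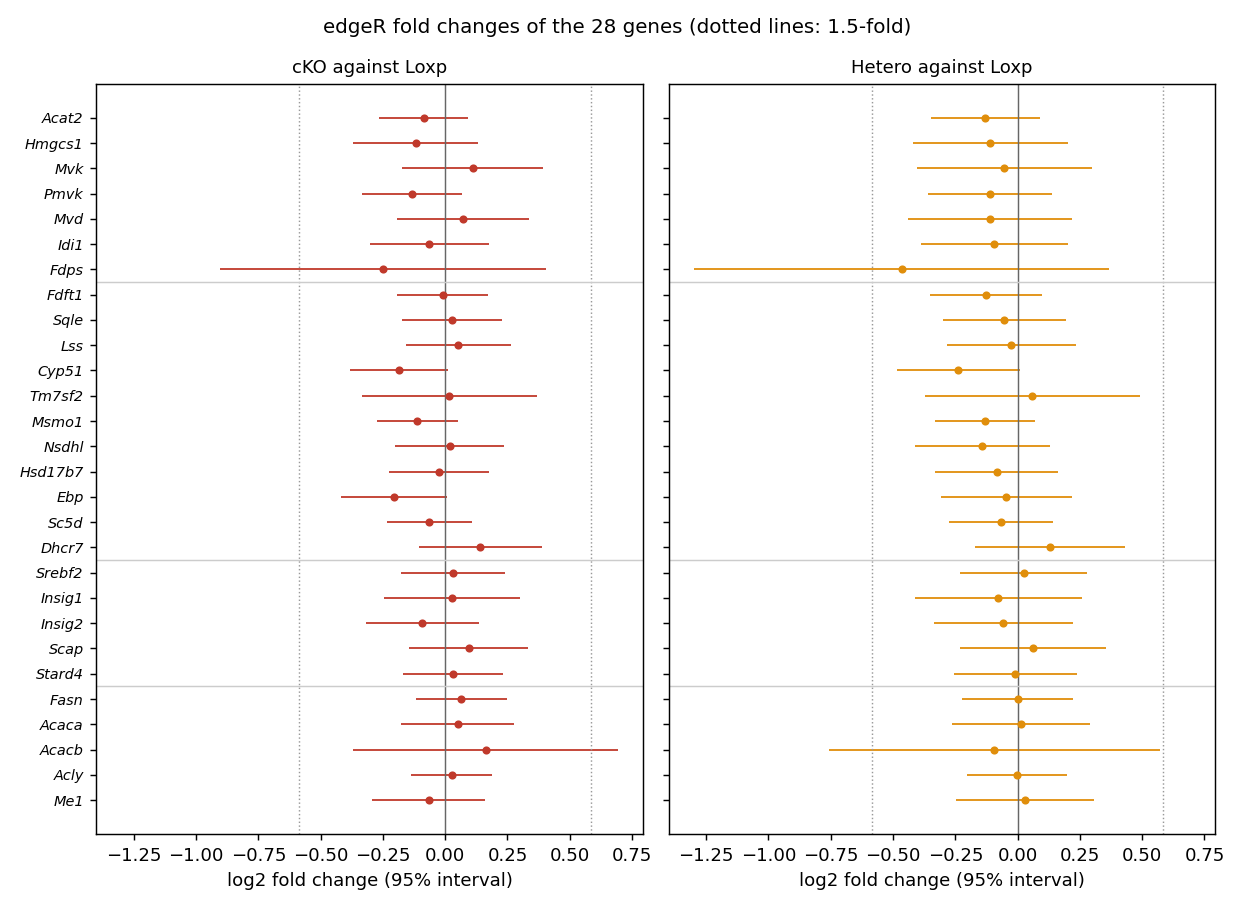
log2 fold changes of the 28 genes with 95% intervals, cKO against Loxp on the left and Hetero against Loxp on the right, with dotted lines at 1.5-fold. Every interval covers 0, and those of Fdps and Acacb alone reach past 1.5-fold in the comparison of cKO with Loxp.

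Hetero was set against Loxp to ask this of the heterozygous deletion, a comparison that shares its Loxp libraries with the comparison above. edgeR called 0 of the 28 genes and 0 of all 18455 (0%). It had 468 genes at an unadjusted p under 0.05 (2.54%) and 0 of the 28, while limma-voom called 0 genes and DESeq2 called 20, of which 0 were among the 28. In 0 of the 28 genes did Hetero stand wholly above or wholly below Loxp, against 5.64% of all genes wholly above and 5.77% wholly below. With the library labelled Loxp 4 left out, 7 of 28 genes (25%) stood wholly below Loxp in Hetero, namely Acat2, Hmgcs1, Mvd, Sqle, Cyp51, Msmo1 and Sc5d, against 9.8% of all genes, and 0 stood wholly above, against 8.89%. With Loxp 3 left out instead, 3 of 28 genes (10.7%), Dhcr7, Srebf2 and Acly, stood wholly above Loxp in Hetero, against 9.07% of all genes. In that setting 0 stood wholly below, against 8.7%. The 95% interval lay within 1.5-fold for 26 of 28 genes (92.9%), against 58.1% of all genes.

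Fold changes of Hetero over Loxp lay below 0 for 22 of 28 genes (78.6%), against 51.8% of all genes tested. Their median was −0.062 on the log2 scale, with a range from −0.47 to 0.13, against a median of −0.0068 over all genes. All 7 mevalonate genes lay below 0 (median −0.11), as did 9 of 11 genes from squalene to sterol (median −0.065), 3 of 5 control genes (median −0.0089) and 3 of 5 fatty acid genes (median −0.000087). Set against the Loxp mean per gene, the median of the 28 genes was −0.0046 in Hetero 1 and −0.10 in Hetero 2. Without Hetero 2 the median log2 fold change was −0.0054, and 15 of 28 genes lay below 0, 5 of 7 in the mevalonate arm. Without Hetero 1 it was −0.11, and 20 of 28 genes lay below 0, 7 of 7 in the mevalonate arm. Leaving out the library labelled Loxp 4 gave a median of −0.072, and 20 of 28 genes (71.4%) lay below 0, against 49.6% of all genes. Without Loxp 1, Loxp 2 and Loxp 3 in turn, 23, 22 and 18 of 28 lay below 0. Hetero 2 also had the lower oligodendrocyte sum and the choroid plexus reads given above. Other marker lists moved in Hetero as well, with 7 of 8 astrocyte markers (median −0.091), 5 of 6 microglia markers (median −0.15) and 5 of 5 endothelium markers (median −0.099) below 0 against Loxp. Meninges markers summed to 154 and 178 CPM in Hetero, against 131, 129, 127 and 104 in Loxp 1 to 4. Genes induced by neuronal activity lay below 0 for 5 of 5 (median −1.11), as in cKO. They summed to 457 and 360 CPM in Hetero, against 825, 615, 904 and 1440 in Loxp 1 to 4. The part of these lists in the values of Hetero was not tested.

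Cyp51 had the smallest p of the 28 genes in Hetero against Loxp, at 84.1 and 79.0 CPM in Hetero, against 97.7, 103, 102 and 81.8 in Loxp. Both Hetero libraries lay below Loxp 1, Loxp 2 and Loxp 3, and the library labelled Loxp 4 lay between them. The log2 fold change was −0.24 (SE 0.114, 95% interval −0.48 to 0.0078, unadjusted p = 0.0567, edgeR adjusted p = 0.99981). An exact permutation test of 2 against 4 libraries gave p = 0.2, where 0.0667 is the smallest p possible. Without the library labelled Loxp 4 it was −0.30 (unadjusted p = 0.0137, not past the adjusted threshold).

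In the mevalonate arm, Acat2 (ENSMUSG00000023832, GRCm38 chromosome 17, 12942890 to 12960747) stood at 42.0 and 43.2 CPM in Hetero, against 48.5, 44.7, 51.8 and 41.4 in Loxp. The library labelled Loxp 4 alone stood below the Hetero libraries, and the log2 fold change was −0.13 (SE 0.102, unadjusted p = 0.224, edgeR adjusted p = 0.99981; exact permutation p = 0.333). Without that library it was −0.17 (unadjusted p = 0.0997). In cKO, Acat2 stood at 43.9, 46.6, 41.8 and 43.4 CPM, a log2 fold change against Loxp of −0.086 (SE 0.0825, edgeR adjusted p = 0.99983; exact permutation p = 0.343), and −0.13 without the library labelled Loxp 4. Pmvk stood at 30.2 and 29.7 CPM in Hetero, a log2 fold change against Loxp of −0.11 (SE 0.115, edgeR adjusted p = 0.99981; exact permutation p = 0.467). The remaining mevalonate genes ran from −0.47 (Fdps, SE 0.387) to −0.054 (Mvk, SE 0.163).

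The other genes given in full stood nearer to Loxp. Ebp stood at 16.2 and 15.7 CPM in Hetero, inside the Loxp range, with a log2 fold change of −0.045 (unadjusted p = 0.721, SE 0.122, edgeR adjusted p = 0.99981; exact permutation p = 0.6). Insig1 stood at 75.4 and 67.9 CPM in Hetero (log2 fold change −0.077, SE 0.155, edgeR adjusted p = 0.99981; exact permutation p = 0.733), and Insig2 stood at 33.6 and 30.5 CPM (log2 fold change −0.058, SE 0.129, edgeR adjusted p = 0.99981; exact permutation p = 0.6). Fasn was level between the groups, at 378 and 379 CPM in Hetero, with a log2 fold change of −0.000087 and a 95% interval from −0.22 to 0.22 (SE 0.104, edgeR adjusted p = 1; exact permutation p = 1). Acacb stood at 4.44 and 4.54 CPM in Hetero (log2 fold change −0.093, SE 0.309, edgeR adjusted p = 0.99981; exact permutation p = 0.867). Of the rest, Dhcr7 was the highest at 0.13 (SE 0.140), and Nsdhl at −0.14 (SE 0.127), Msmo1 at −0.13 (SE 0.0936) and Fdft1 at −0.13 (SE 0.105) were the lowest besides Cyp51 and Fdps.

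**Figure D3:**
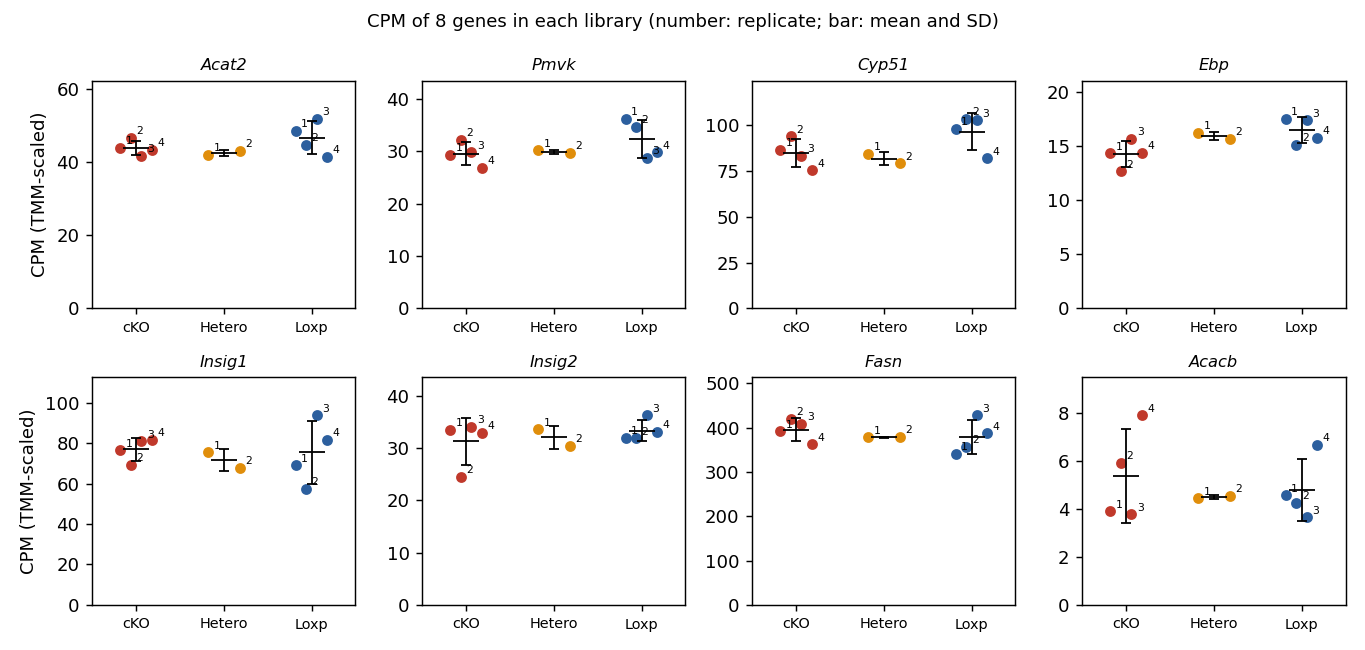
CPM of the 8 genes given in full, in each cKO, Hetero and Loxp library, with the replicate number beside each point and bars for mean and SD; all axes start at 0. For Cyp51, Loxp 1, Loxp 2 and Loxp 3 stand above every cKO and Hetero library, while the library labelled Loxp 4 (81.8 CPM) stands among them.

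The comparison of cKO with Hetero, 4 against 2 libraries, asked whether the full deletion differs from the heterozygous one with Cre on both sides. edgeR called 0 of the 28 genes and 0 of all 18455 (0%). It had 321 genes at an unadjusted p under 0.05 (1.74%) and 0 of the 28, while limma-voom called 0 genes and DESeq2 called 3, of which 0 were among the 28. In 0 of the 28 genes did cKO stand wholly above or wholly below Hetero, against 4.90% of all genes wholly above and 4.54% wholly below, and the 95% interval lay within 1.5-fold for 26 of 28 genes (92.9%), against 58.7% of all. The log2 fold change of cKO over Hetero lay below 0 for 6 of 28 genes (21.4%), against 47.5% of all genes, with a median of 0.039 against 0.0078. It was 0.0037 without cKO 2, with 12 of 28 genes below 0, and 0.0057 without Hetero 2, with 13 of 28 below 0. With any other library of the comparison left out, the median ran from 0.035 (without cKO 3, 9 of 28 below 0) to 0.075 (without cKO 4, 3 of 28). The values ran from −0.16 (Ebp, SE 0.121) to 0.26 (Acacb, SE 0.308), with Mvd at 0.18 (SE 0.153), Mvk at 0.16 (SE 0.163) and Nsdhl at 0.16 (SE 0.126). For Cyp51 the difference was 0.053 (SE 0.113, 95% interval −0.19 to 0.30, edgeR adjusted p = 0.999916).

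Of the 4 cKO libraries, cKO 2 was the highest for 20 of 28 genes (71.4%), against 34.2% of all genes tested, and cKO 4 was the lowest for 17 of 28 (60.7%), against 26.5% of all genes. Over all genes, too, cKO 2 was the cKO library most often at an extreme, being the lowest for 33.8%. In Loxp no library was so often at one end, with Loxp 3 the highest for 10 of 28 genes (35.7%, against 21.2% of all genes) and the library labelled Loxp 4 the lowest for 10 of 28 (35.7%, against 24.9%). Set against the Loxp mean, the median of the 7 mevalonate genes was −0.082, 0.15, −0.11 and −0.26 on the log2 scale in cKO 1 to 4, and −0.038 and −0.12 in Hetero. It was 0.063, 0.11, −0.014 and −0.15 in Loxp 1 to 4. In the mevalonate arm, 0 of 7 genes exceeded the Loxp mean in cKO 4, Hetero 2 and the library labelled Loxp 4, and 6 of 7 did in cKO 2.

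**Figure D4:**
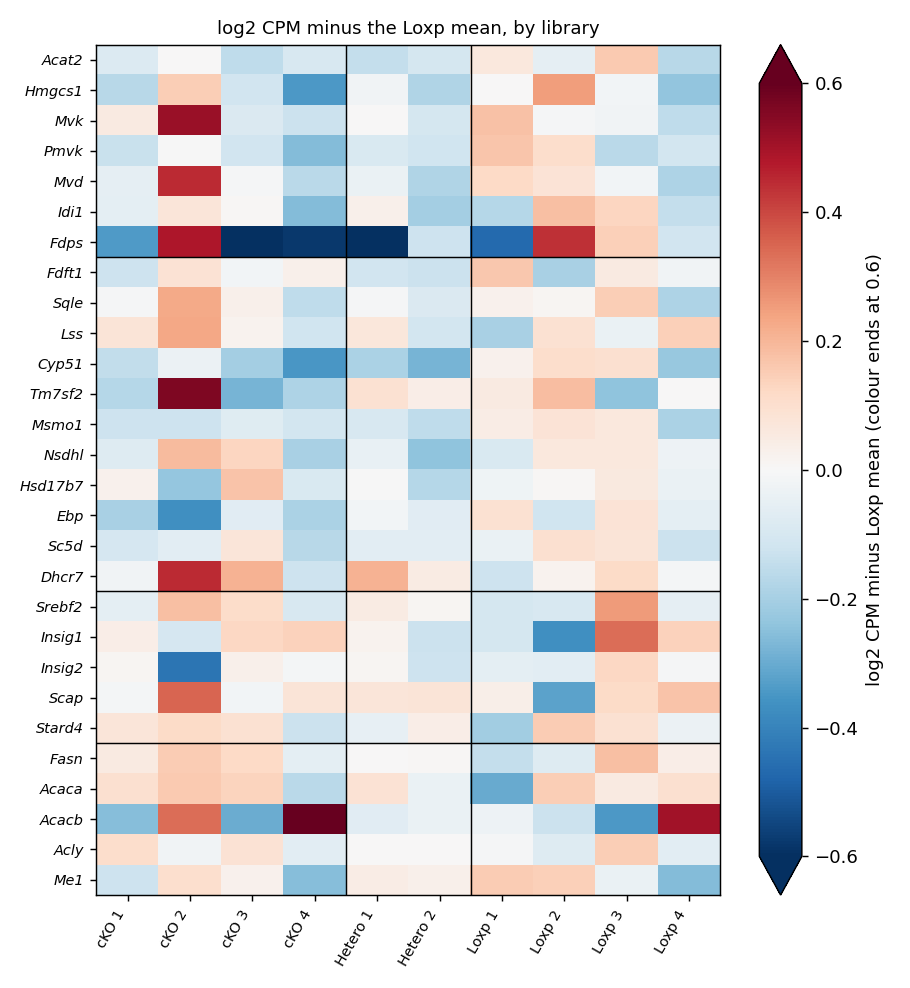
log2 CPM of each gene in each library minus the mean of the 4 Loxp libraries, with colour saturating at 0.6 either way, libraries in columns (cKO, Hetero, Loxp) and genes in rows by role. cKO 2 is red for most genes and blue for Insig2, Ebp and Hsd17b7, while cKO 4 is mostly blue.

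The excess in cKO 2 differed from gene to gene. Relative to the mean of the other 3 cKO libraries, it was 1.02 on the log2 scale for Fdps, 0.77 for Tm7sf2, 0.57 for Mvk, 0.52 for Mvd and 0.43 for Dhcr7. It was −0.45 for Insig2, −0.26 for Hsd17b7, −0.22 for Ebp and −0.20 for Insig1, genes singled out after their values were seen. Mvk (59.6% GC in its longest coding transcript), Mvd (59.3%), Scap (59.1%) and Tm7sf2 (56.5%) are rich in GC, while Insig2 (46.0%) and Hsd17b7 (43.9%) are poorer. Other genes went against this order. Hmgcs1 (43.1%) and Idi1 (41.9%) had an excess of 0.36 and 0.18, and Fasn (57.9%) one of 0.12. Over the 28 genes the excess in cKO 2 and GC content had a correlation of 0.479, and over 18412 tested genes one of 0.173, as a description across genes of 1 library. Each other library was likewise set against the rest of its group, and over the 28 genes the correlation was −0.447, −0.549 and 0.0960 in cKO 1, cKO 3 and cKO 4, −0.241 and 0.241 in Hetero, and 0.158, −0.276, −0.229 and 0.345 in Loxp 1 to 4. The 2 Hetero libraries were set against each other, so their values mirror each other by construction. Over all genes these correlations ran from −0.149 (cKO 3) to 0.0146 (cKO 4) among the other cKO libraries and from −0.217 (Loxp 2) to 0.161 (Loxp 1) in Loxp. Of all libraries, cKO 2 had the lowest oligodendrocyte sum, 6235 CPM, and the highest sum of oligodendrocyte precursor markers, 722 CPM against 417 to 434 in the other cKO libraries and 441 to 551 in Loxp. Endothelium markers in cKO 2 summed to 297 CPM (189 to 222 in the other cKO libraries), microglia markers to 310 (260 to 262) and astrocyte markers to 5316 (4795 to 4923). Interneuron markers in cKO 2 summed to 649 CPM (879 to 990 in the other cKO libraries) and meninges markers to 63.8 (123 to 133). Loxp 2 stood near cKO 2 in interneuron markers (664 CPM) and endothelium markers (295), and above it in astrocyte markers (5628). It did not in microglia markers (264) or meninges markers (129). The part of GC content and of these cells in the values of cKO 2 was not tested. With an offset for GC content in each library the median of cKO against Loxp was 0.00048, and Ebp stood at −0.21 (unadjusted p = 0.0470, not past the adjusted threshold).

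Without cKO 2, several enzymes lay lower in cKO against Loxp, and none of the 28 passed the adjusted threshold. Hmgcs1 then stood at −0.21 (SE 0.103, unadjusted p = 0.0592), against −0.12 with all libraries, and Tm7sf2 at −0.21 (SE 0.0997, unadjusted p = 0.0508), against 0.016. Fdps, whose count is uncertain, stood at −0.58 (SE 0.273, unadjusted p = 0.0521), against −0.25. Mvk and Mvd changed sign, to −0.051 and −0.073 on the log2 scale, against 0.11 and 0.071 with all libraries.

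**Figure D5:**
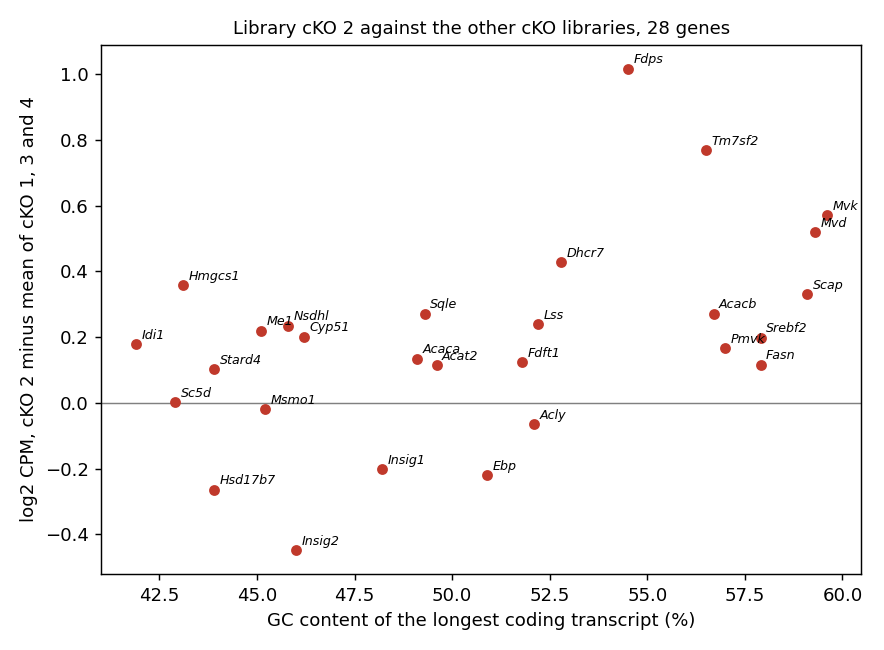
Each point is 1 of the 28 genes, with the GC content of its longest coding transcript (percent) on the x axis and log2 CPM of cKO 2 minus the mean of cKO 1, 3 and 4 on the y axis. Fdps (1.02) and Tm7sf2 (0.77) stand highest and Insig2 (−0.45) lowest.

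Further genes of lipid synthesis and its control, outside the 28, were read from a list of 50, of which 49 were tested. They cover fatty acid elongation and desaturation, other steps of sterol handling, acyl-CoA synthetases and sources of NADPH. edgeR called 0 of them in each comparison. In cKO against Loxp the median log2 fold change of the list was −0.0036, and 1 of 49 genes had an unadjusted p under 0.05, near the share of 2.53% over all genes tested, and 0 to 2 did with 1 library of the comparison left out. This was Hsd17b12, a reductase of fatty acid elongation, at 53.7, 52.4, 60.6 and 53.0 CPM in cKO, against 64.0, 61.2, 64.1 and 58.4 in Loxp. On the log2 scale the fold change was −0.17 (SE 0.0741, unadjusted p = 0.0366, edgeR adjusted p = 0.99983). Of the cKO libraries only cKO 3 stood above a Loxp library, the one labelled Loxp 4.

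In Hetero against Loxp the median of the list was −0.029, and 4 of 49 genes had an unadjusted p under 0.05, all lower in Hetero, against 2.54% of all genes tested. Of the list, 2 of 48 did without the library labelled Loxp 4 (4.17%, against 2.58% of all genes), and without Hetero 2, 1 of 49 did (2.04%, against 1.63%). The count was 2 without Loxp 3 and 0 without Hetero 1. Thrsp, a regulator of lipogenesis that responds to thyroid hormone, stood at 8.84 and 11.1 CPM in Hetero, against 14.3, 20.1, 15.8 and 21.1 in Loxp. edgeR put its log2 fold change at −0.84 (SE 0.265, unadjusted p = 0.00711, edgeR adjusted p = 0.99981), and both Hetero libraries lay below all Loxp libraries, as in 5.77% of all genes tested. Acsl3, a long-chain acyl-CoA synthetase, stood at 143 and 142 CPM in Hetero, against 177, 169, 166 and 171 in Loxp (log2 fold change −0.26, SE 0.108, edgeR adjusted p = 0.99981). Me3, the mitochondrial malic enzyme, was at −0.38 (SE 0.170) and Hsd17b12 at −0.20 (SE 0.0917), each with both Hetero libraries below all Loxp libraries. In cKO against Hetero the median was 0.038 and 2 of 49 genes had an unadjusted p under 0.05, against 1.74% of all genes tested. Without cKO 2, 5 of 48 did (10.4%, against 2.98% of all genes), and with any other library of the comparison left out 0 or 1 of 49 did. Thrsp stood at 13.4, 16.2, 16.2 and 27.8 CPM in cKO, a log2 fold change over Hetero of 0.88 (SE 0.265, edgeR adjusted p = 0.999916), and Lpin1, a phosphatidate phosphatase, was at 0.27 (SE 0.121, edgeR adjusted p = 0.999916).

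The authors' deposited table gives its own tests of both genotypes against Loxp. Among the 28 genes its lowest adjusted p was 0.999994 for cKO and 0.999965 for Hetero. Of the 28 genes, 1 had an unadjusted p under 0.05 in the authors' deposited table, namely Cyp51 in Hetero, with a log2 fold change of −0.24 (p = 0.0497). The log2 fold changes of the 28 genes in the authors' deposited table differed from those of edgeR by at most 0.00317 for cKO and 0.00142 for Hetero.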

How the data were processed

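RNA was sequenced from S1BF of 4 cKO, 2 Hetero and 4 Loxp samples, from 3 µg of RNA each with the NEBNext Ultra kit, per the labels' protocols. The authors deposited read counts per gene, which the submitters' processing notes tie to featureCounts 1.5.0-p3 and the build mm10, and FPKM per gene. The sources used here give no aligner, annotation, strand setting or test tool. The authors' deposited table also holds their own tests, as log2 fold changes with a p-value and an adjusted p-value.

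The 28 members, the related list and the marker lists were chosen with earlier results of these data known. Counts were tested with edgeR 4.0.16 in R 4.3.3 (TMM, filterByExpr, glmQLFit, glmQLFTest), with all 10 libraries in 1 fit and a mean per group. Benjamini-Hochberg adjustment ran over 18455 genes, with a threshold of 0.05, and all edgeR adjusted p-values are of this kind. The common biological coefficient of variation was 14.9%. The 95% intervals use the moderated degrees of freedom. The fit was tested on simulated data with planted changes larger than the fold changes of the 28 genes, so its power at their size was not tested. CPM came from edgeR's cpm function on TMM-scaled totals, log2 CPM used a prior count of 2, and exact permutation tests were two-sided. Alternatives were other scalings and filters, only the groups compared, the replicate block, DESeq2 1.42.0, limma-voom (limma 3.58.1), each library left out in turn and, added after seeing the data, an offset for GC content and counts of groups without overlap with 1 library left out. Totals of 19332990 to 26086337 counts set the counting precision; Fdps (24 to 71 reads) and Acacb (87 to 189) were the shallowest.

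All 28 genes are named. Values in every library are given for genes past an unadjusted p of 0.05 (none) and for the smallest p of each role in cKO and in Hetero against Loxp, which gave 8 genes. Any other gene singled out was chosen after its values were seen. Gene coordinates are those of GENCODE M21 (GRCm38, which is mm10), and promoters those of RefSeq. Copies were found with BLAST 2.17.0.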

Additional observations from a re-analysis of the deposited data

Results flagged for a closer look

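Of 56 groups of 4 libraries (28 genes in cKO and in Loxp), 4 held a library whose gap to its neighbour, as a share of the range of the group, exceeded the critical value of Dixon's test at 95%. Chance alone gives about 1 in 20. Tm7sf2, a sterol reductase, was highest in cKO 2 (share 0.902), at 43.2 CPM against 24.2 to 26.0 in the other cKO libraries. Insig2, a retention protein of SCAP, was lowest in cKO 2 (share 0.886), at 24.5 CPM against 32.9 to 34.0 in the other cKO libraries. Msmo1, the methylsterol monooxygenase, was lowest in the library labelled Loxp 4 (share 0.851), at 69.8 CPM against 82.2 to 84.3 in the other Loxp libraries. Srebf2, the gene of SREBP2, was highest in Loxp 3 (share 0.882), at 326 CPM against 254 to 262 in the other Loxp libraries.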

How the results depend on the processing

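No member passed the adjusted threshold in any comparison under any setting run. The medians over the 28 genes ran from −0.040 to 0.025 (cKO against Loxp), −0.11 to −0.0054 (Hetero against Loxp) and 0.0037 to 0.075 (cKO against Hetero). They moved by less than the spread of 0.0776 between Loxp libraries. That spread is larger than the main medians themselves (0.017, −0.062 and 0.039), so it cannot show that a median is stable. The median of cKO against Loxp changed sign within it. With no low-count filter edgeR called 32 genes in cKO against Loxp, 68 in Hetero against Loxp and 39 in cKO against Hetero. DESeq2 called 20 in Hetero against Loxp and 3 in cKO against Hetero. Leaving out 1 library at a time gave 0 to 1, 0 to 15 and 0 to 14 calls in these comparisons, with 1 without cKO 2 and with 15 and 14 without Hetero 1, where the lone Hetero 2 is assumed to vary like the other groups. Members at an unadjusted p under 0.05 numbered 0 to 2 of 28 in cKO against Loxp (2 without the library labelled Loxp 4, Cyp51 and Msmo1, against 3.55% of all genes), 0 to 1 in Hetero against Loxp (Cyp51 without the library labelled Loxp 4, against 2.58%, or without cKO 2, against 3.41%) and 0 to 1 in cKO against Hetero (Tm7sf2 without cKO 2, against 2.98%). They numbered 1 with the GC offset (Ebp, cKO against Loxp, against 2.83%) and 1 with no filter (Cyp51, Hetero against Loxp, against 2.84%). Members wholly below Loxp numbered 0 to 2 in cKO and 0 to 7 in Hetero with 1 library left out, the highest of each without the library labelled Loxp 4. They numbered 5 in Hetero without Hetero 1, against 14.4% of all genes. Without Hetero 1, 5 members stood wholly above Hetero in cKO, against 13.8%, and without cKO 4, 4 did, against 7.93%. Without Loxp 3, 3 members (Dhcr7, Srebf2 and Acly) stood wholly above Loxp in Hetero, against 9.07% of all genes, and 0 wholly below, against 8.7%. Those counts were chosen after seeing the data.

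The groups share replicate numbers in the labels, and nothing else there pairs the samples. Same-numbered cKO and Loxp libraries had correlations of 0.0952, 0.199, 0.0419 and 0.322 in their deviations from the group means, and those of Hetero lay between −0.0257 and 0.0230. Each cKO library was compared with the Loxp libraries only, and each Loxp library with the cKO libraries only. Of these 8 libraries, 8 correlated best with their own number, a hint from the data and not the design. The main fit has no such block. Adding the replicate block to edgeR gave 1 call (Arc) in cKO against Loxp and 1 (Arc) in Hetero against Loxp, with 1 member (Cyp51) at an unadjusted p under 0.05 in each, against 3.49% and 3.2% of all genes. In Hetero against Loxp with the block, Cyp51 stood at −0.31 on the log2 scale (edgeR unadjusted p = 0.00832). That was its lowest p of the settings run, and it was not past the adjusted threshold.

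Signs of small log2 fold changes turned in some settings, all without a call. With the block, Hetero against Loxp gave 0.0042 for Ebp, 0.10 for Insig1, 0.026 for Insig2, 0.040 for Fasn and 0.026 for Acacb, and cKO against Hetero gave 0.076 for Pmvk and −0.053 for Insig1. Fasn in Hetero against Loxp, at −0.000087, was 0.0038 with DESeq2 size factors, 0.017 with library size alone, 0.0085 with at least 1 CPM in 4 libraries, 0.0053 with only the groups compared, 0.0026 with DESeq2 and 0.0055 with limma-voom. Leaving out 1 library at a time gave −0.082 to 0.15 for Insig1, −0.13 to 0.011 for Insig2 and −0.083 to 0.37 for Acacb in cKO against Loxp. It gave −0.19 to 0.046 for Insig1, −0.13 to 0.013 for Insig2, −0.046 to 0.066 for Fasn and −0.20 to 0.12 for Acacb in Hetero against Loxp. It gave −0.065 to 0.019 for Pmvk, −0.0015 to 0.10 for Cyp51 and −0.10 to 0.063 for Insig2 in cKO against Hetero. The cause was not tested. Fdps (24 to 71 reads, coefficient of variation 33.6%) and Acacb (87 to 189 reads, 28.3%) had intervals that reach past 1.5-fold, and the part of depth in this was not tested.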
